A study of Mus musculus with 7 samples.

Results

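The genes of the opioid system followed here are the precursors Pdyn and Penk and the receptors Oprm1, Oprd1, Oprk1 and Oprl1. They were found by gene name and are 6 of 38924 gene records in the deposited gene table. Their exons are divided into 107 of the 359565 exon bins, the non-overlapping pieces in which reads over exons were counted. Polyadenylated RNA of adult mouse hippocampus was sequenced as 7 libraries, with RNA taken by Qiagen RNeasy Plus and libraries built by Illumina TruSeq mRNA preparation. Wild-type mice gave 3 libraries of Ammon's horn (the CA fields) and 1 of dentate gyrus, and homozygous Khdrbs3 deletion mice gave the other 3 of Ammon's horn. No animal was given a special treatment. Khdrbs3 encodes T-STAR, an RNA-binding splicing regulator, and per the labels its null allele (Tstar) had been backcrossed to C57Bl6 for 8 generations. The labels give this background for the wild-type libraries too, name no cell type for the deletion, and do not say whether a library is 1 animal or a pool. The p-values below therefore measure the spread between these libraries, which may be technical.

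Opioid peptides are cut from larger precursor proteins at pairs of basic residues and share a common amino-terminal core. Pdyn encodes prodynorphin, the source of dynorphins and neo-endorphins, which act mainly on the kappa receptor (Oprk1), and Penk encodes proenkephalin, the source of enkephalins, which act mainly on the delta (Oprd1) and mu (Oprm1) receptors. Oprl1 encodes the nociceptin receptor, whose ligand comes from Pnoc. All 4 receptors couple to inhibitory G proteins, and in the hippocampus dynorphin is known from dentate granule cells and their mossy fibres, and enkephalin from interneurons and the perforant path.

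The coding sites of the opioid core are shown because they are what makes Pdyn and Penk opioid precursors, and because they place the peptides in the exon bins counted below. Each run is written 5′ to 3′ on the coding strand, with the 12 bases that encode the Tyr-Gly-Gly-Phe core in capitals, 6 bases before it and 12 after it. The sequences and mm10 (GRCm38) positions come from GENCODE M21 transcripts. Pdyn holds 3 sites, all followed by a leucine codon and all in exon bin 1 on the minus strand of chromosome 2, at chr2:129688229-129688258, chr2:129688121-129688150 and chr2:129688064-129688093:
Pdyn site 1: aaacgcTATGGCGGCTTTttgcgcaaatac
Pdyn site 2: aaacgcTATGGGGGCTTCctgcggcgcatt
Pdyn site 3: aagcgcTATGGTGGTTTCctgcggcgtcag
Penk holds 7 sites on the minus strand of chromosome 4, of which 6 are followed by methionine and 1, site 6, by leucine. The first and the last are shown with site 6, at chr4:4134325-4134354, chr4:4133932-4133961 and chr4:4133839-4133868, the last of them running into the stop codon:
Penk site 1: aagaagTACGGAGGCTTCatgaaacggtac
Penk site 6: aagaggTATGGGGGCTTCctgaagcgcttt
Penk site 7: aaaagaTACGGGGGCTTTatgcggttctga
A codon pair for basic residues stood directly before the core at 3 of 3 sites in Pdyn and 7 of 7 in Penk. Directly after the pentapeptide such a pair stood at 3 of 3 and 5 of 7 sites. Sites 1 to 3 of Penk lie in exon bin 2 and sites 4 to 7 in exon bin 1.

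Library totals lay between 50230733 and 67692326 counts in the gene table, and between 29698245 and 39904606 in exon bins. Levels are in CPM, counts scaled to library size with TMM factors, and the gene table counts the whole span of a gene with its introns. Reads in bin 2 of Khdrbs3, a bin chosen from earlier results of these data, numbered 808, 1103 and 964 in the wild type, 6, 9 and 7 in the knockout libraries and 506 in the dentate gyrus. Over its whole span Khdrbs3 was not lost from the RNA: the gene table gave 140 ± 4.6 CPM in the wild type and 199 ± 3.2 CPM in the knockout (SD, n = 3), and called it higher by 0.51 ± 0.05 on the log2 scale (adjusted p 0.00245, edgeR). The summed level of 5 granule cell markers was 51.3 to 69.4 CPM in wild-type Ammon's horn, 48.8 to 69.9 in the knockout, with 504 in the dentate gyrus. The summed level of 5 CA1 markers was 562 to 584, 512 to 556 and 80.1 CPM in the same order. Summed CA2 and CA3 markers (7 genes) separated the regions little, at 304 to 319, 314 to 316 and 284 CPM. Of these, 1 was called higher and 2 lower in the dentate gyrus. The regional labels therefore match the granule cell and CA1 markers, but the CA2 and CA3 markers did not set the regions apart. No gene of any marker list was at 0 in all libraries. Granule cell markers were thus also detected, at a low level, in the Ammon's horn libraries. Summed choroid plexus markers (12 genes) ran from 29.5 to 162 CPM in the wild type, were 819, 27.3 and 762 CPM in the 3 knockout libraries, and were 281 CPM in the dentate gyrus.

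The dynorphin precursor Pdyn and the dynorphin receptor Oprk1 differed most between the regions, in opposite directions. Of the 6 genes, 5 passed the test between dentate gyrus and wild-type Ammon's horn, against 22.0% of all 24486 genes tested. Pdyn and, in the gene table, Oprm1 were higher in the dentate gyrus (11.2% of all genes were), while Oprk1, Oprd1 and Oprl1 were lower (10.9% of all genes). Penk did not pass. In sums of exon bins 4 of 6 passed, against 29.3% of 16263 genes, since the higher call of Oprm1 was lost there and its direction reversed. A gene was called at a Benjamini-Hochberg adjusted p under 0.05 in edgeR's quasi-likelihood test. The dentate gyrus is 1 library, assumed to vary like the others, and in bulk tissue fewer cells of a type and less RNA per cell cannot be told apart.

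**Figure D1:**
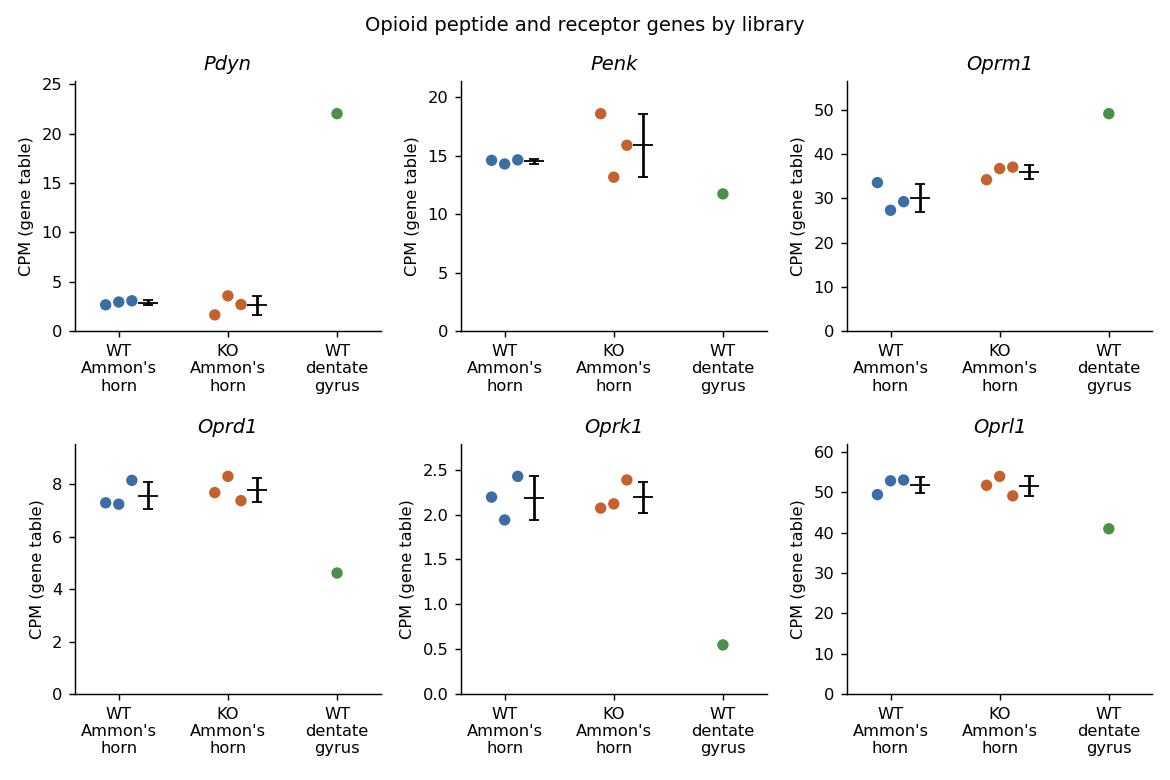
Level of each gene in each of the 7 libraries (vertical axes, CPM from the gene table, each starting at 0), by group on the horizontal axis; points are libraries and bars the mean ± SD of the 3 libraries of a group. Pdyn stands at 22.0 CPM in the dentate gyrus and at or under 3.58 CPM in every Ammon's horn library, and Oprk1 shows the opposite order.

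Pdyn (ENSMUSG00000027400.5, chr2:129686565-129699844, minus strand) was measured at 2.67, 2.96 and 3.08 CPM in wild-type Ammon's horn, at 1.65, 3.58 and 2.70 CPM in the knockout and at 22.0 CPM in the dentate gyrus. The dentate gyrus library lay far above all 6 others, and the knockout libraries lay on both sides of the wild-type ones. The difference between dentate gyrus and wild-type Ammon's horn was 2.92 ± 0.26 on the log2 scale (SE), or 7.57-fold, with an adjusted p of 3.8e-05 in edgeR. Counting only exon bins gave 2.94 ± 0.25 and the same call. The granule cell marker genes Prox1, C1ql2, Dsp, Tdo2 and Maml2 were all called higher in the dentate gyrus, by 1.73 to 3.52 on the log2 scale. The difference of Pdyn lay within that range. Within Ammon's horn, the library lowest in Pdyn (knockout 1) was also lowest in summed granule cell markers, at 48.8 CPM, and the library highest in Pdyn (knockout 2) was highest in them, at 69.9 CPM. The libraries between did not follow that order: wild type 2 had 51.3 CPM of markers and 2.96 CPM of Pdyn, while wild type 1 had 63.0 and 2.67 CPM. The part of granule cell RNA in the Ammon's horn level of Pdyn was not tested.

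**Figure D2:**
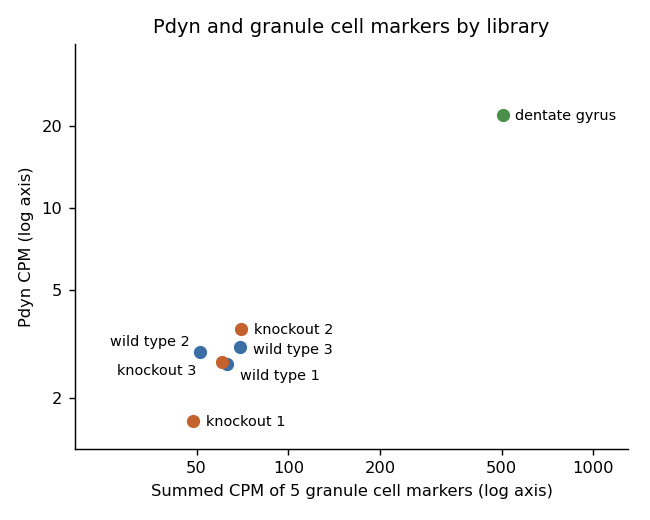
Pdyn (vertical, CPM, log axis) against the summed CPM of the 5 granule cell markers (horizontal, log axis); each point is 1 library. The dentate gyrus library stands apart at 504 and 22.0 CPM, and the 6 Ammon's horn libraries lie together between 48.8 and 69.9 CPM of marker sum.

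Transcripts of Pdyn can begin at an upstream first exon (bins 7 and 8) or at an internal one (bin 6). Summed over both bins, so that a read can count more than once, the upstream first exon had counts of 13, 17 and 11 in the wild type, 4, 9 and 8 in the knockout libraries and 74 in the dentate gyrus. Bin 6 held 0 reads in all 7 libraries. In the dentate gyrus, the library with the most Pdyn reads, 0 of 871 summed bin counts allows a share of up to 0.42%. That limit is exact Clopper-Pearson, for counting error only, and takes each count as a separate read. It bounds the part of bin 6 (40 bases) in the counts of the whole gene, not the share of transcripts that start there. The upstream first exon (137 bases) itself held only 8.50% of these counts. Of these 2 starts only the upstream one held reads at this depth, in either region. Bins 1 to 3, which hold coding sequence but need not be coding throughout, held 84.9% of the gene's exon bin counts over the 7 libraries. Bin 1 alone is 1931 bases long.

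Penk (ENSMUSG00000045573.9, chr4:4133531-4138819, minus strand) was measured at 14.6, 14.3 and 14.7 CPM in wild-type Ammon's horn, at 18.6, 13.2 and 15.9 CPM in the knockout and at 11.7 CPM in the dentate gyrus. The dentate gyrus value was the lowest of the 7, and the knockout libraries surrounded the closely spaced wild-type ones. The regional difference was -0.31 ± 0.16 (log2, SE) with an adjusted p of 0.217 in edgeR, and was not called. Its 95% interval ran from -0.67 to 0.06. Summed interneuron markers (10 genes) were 640 to 721 CPM in wild-type Ammon's horn and 538 CPM in the dentate gyrus, with 7 called lower and 1 (Reln) called higher. In the knockout the interneuron markers summed to 767, 720 and 738 CPM. Penk, the interneuron markers and the choroid plexus markers had the same order of knockout libraries, highest in knockout 1 and lowest in knockout 2. In the gene table the wild-type libraries did not share 1 order in this way. Wild type 3 was there the highest of them in Penk, at 14.7 CPM, and the lowest in interneuron markers (640 CPM) and choroid plexus markers (29.5 CPM). Exon bins gave Penk at 15.8, 15.1 and 13.5 CPM in wild type 1, 2 and 3. That order was shared by the interneuron markers (721, 699 and 640 CPM) and the choroid plexus markers (162, 46.8 and 29.5 CPM). The order of the wild-type libraries in Penk thus depended on the counting. The part of either cell type in the spread of Penk was not tested. Summed striatal markers (8 genes), a check on tissue carried over from a region rich in Penk, were 109 to 113 CPM, 110 to 115 CPM and 116 CPM in the 3 groups. Summed markers of meninges and fibroblasts (8 genes) were 135 to 149 CPM, 130 to 158 CPM and 196 CPM, with 7 called higher and 1 (Dcn) lower in the dentate gyrus, and the part of any of these cells in the level of Penk was not tested. The antisense-strand gene A830012C17Rik, with 122 to 171 counts per library, covers 9.44% of the span of Penk.

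Per kilobase of exon, the 6 genes fell in one order in wild-type Ammon's horn. Oprl1 had 17.9 ± 0.39 exon bin CPM per kb (SD, n = 3), followed by Penk at 9.06 ± 0.70, Oprd1 at 1.62 ± 0.11, Pdyn at 1.12 ± 0.03, Oprk1 at 0.261 ± 0.057 and Oprm1 at 0.0985 ± 0.041. No neighbours in that order overlapped between their 3 libraries, and the knockout libraries gave the same order. In the dentate gyrus Pdyn moved up to second place at 8.56 CPM per kb, behind Oprl1 at 14.3 and ahead of Penk at 7.24, an order that 1 library cannot test. Oprd1 stood at 1.01, Oprm1 at 0.0812 and Oprk1 at 0.0332 CPM per kb in that library. A read is counted in each bin it touches: a bin of 1 base in Oprl1 (bin 11) held 60 to 94 reads per library. Sums over many short bins therefore overstate a level. In the longest bin of each gene alone, the wild-type means were 16.5 CPM per kb for Oprl1, 10.8 for Penk, 1.70 for Oprd1, 1.07 for Pdyn and 0.354 for Oprk1, so the order held, while the longest bin of Oprm1 (bin 31) had 0 reads.

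Oprk1 (ENSMUSG00000025905.7, chr1:5588493-5606131, plus strand), the kappa receptor, was measured at 2.20, 1.94 and 2.43 CPM in wild-type Ammon's horn, at 2.07, 2.12 and 2.39 CPM in the knockout and at 0.547 CPM in the dentate gyrus. The Ammon's horn groups overlapped, and the dentate gyrus library lay below all of them. The regional difference was -1.99 ± 0.27 (log2, SE), or 3.99-fold lower, with an adjusted p of 0.000518 in edgeR. In exon bins, with 53, 56 and 78 reads in the wild type, 55, 66 and 57 in the knockout libraries and 8 in the dentate gyrus, it was larger at -2.95 ± 0.46, or 7.74-fold lower (adjusted p 0.000549). Of the exon bin reads of Oprk1, 69.2% lay in the 3′ noncoding bins 9 to 11 (3265 bases) and 19.6% in the coding bins 7 and 8 (968 bases). Bins 1 to 5 (536 bases), of which bin 5 also holds coding sequence, had 9.38%. The longer stretches held the larger shares. The receptor of the dynorphins was thus lower in the region where their precursor was higher.

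Oprd1 (ENSMUSG00000050511.1, chr4:132110726-132144486, minus strand), the delta receptor, was measured at 7.29, 7.24 and 8.15 CPM in wild-type Ammon's horn, at 7.68, 8.30 and 7.38 CPM in the knockout and at 4.62 CPM in the dentate gyrus. Only the dentate gyrus library stood apart. The regional difference was -0.71 ± 0.15 (log2, SE), or 1.64-fold lower, with an adjusted p of 0.0059 in edgeR, and -0.68 ± 0.18 in exon bins.

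Oprl1 (ENSMUSG00000027584.10, chr2:181715016-181720985, plus strand), the nociceptin receptor, was measured at 49.4, 52.8 and 53.0 CPM in wild-type Ammon's horn, at 51.7, 53.9 and 49.1 CPM in the knockout and at 40.9 CPM in the dentate gyrus. The Ammon's horn groups overlapped, and again the dentate gyrus library was lowest. The regional difference was -0.34 ± 0.08 (log2, SE), or 1.26-fold lower, with an adjusted p of 0.0122 in edgeR, and -0.32 ± 0.09 in exon bins. The upstream first exon of Oprl1 was read from its longest bin (bin 7, 129 bases), which held 95, 130 and 91 reads in the wild type, 98, 135 and 85 in the knockout libraries and 83 in the dentate gyrus. An internal first exon (bin 8, 142 bases) held 2, 2 and 3 reads in the wild type, 2, 5 and 0 in the knockout libraries and 3 in the dentate gyrus. In every library the upstream bin was the higher of both.

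Oprm1 (ENSMUSG00000000766.12, chr10:6758506-7038198, plus strand), the mu receptor, was measured at 33.6, 27.3 and 29.3 CPM in wild-type Ammon's horn, at 34.2, 36.7 and 37.1 CPM in the knockout and at 49.1 CPM in the dentate gyrus by the gene table. The dentate gyrus library was highest and the knockout libraries all lay above the wild-type ones. The gene table gave a regional difference of 0.71 ± 0.10 (log2, SE), with an adjusted p of 0.000887 in edgeR. Exon bins gave -0.29 ± 0.52 and an adjusted p of 0.715, the summed bin counts being 15, 29 and 41 in the wild type, 44, 64 and 30 in the knockout, and only 23 in the dentate gyrus. The groups overlapped in these counts, and without wild-type library 3 the exon bin difference was 0.07.

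The exon bins of Oprm1 held only 0.753% to 2.80% of its gene table count. In wild-type Ammon's horn the same share was 75.8% ± 2.4 (SD, n = 3) for Oprl1, 64.9% ± 2.6 for Pdyn, 59.5% ± 3.8 for Penk, 50.1% ± 1.1 for Oprd1 and 47.2% ± 6.1 for Oprk1. The antisense-strand gene Ipcef1 (chr10:6885796-7052478, minus strand) covers 152403 bases, or 54.5%, of the Oprm1 span. Its gene table counts were 1498, 1687 and 1420 in the wild type, 1652, 1763 and 1521 in the knockout libraries and 2887 in the dentate gyrus, beside 1758, 1886 and 1748, then 2031, 2287 and 1879, and 3056 for Oprm1. The count of Oprm1 exceeded that of Ipcef1 by 199 to 328 in the wild type, by 379, 524 and 358 in the knockout libraries and by 169 in the dentate gyrus. Ipcef1 itself was higher in the dentate gyrus by 0.86 ± 0.10 in the gene table (adjusted p 0.000269, edgeR) and by 1.21 ± 0.13 in exon bins. Whether the counting used strand is not given in the sources used here, and without strand the reads of both genes cannot be told apart. The gene table value of Oprm1 is therefore uncertain as a measure of the mu receptor, and the exon bins are too thinly filled to give its regional direction.

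**Figure D3:**
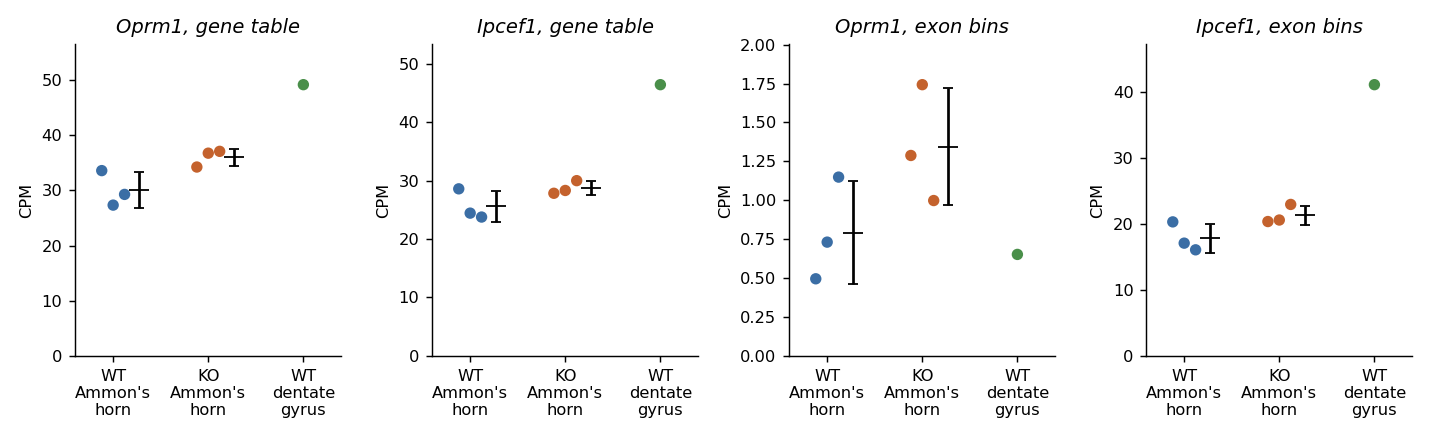
Oprm1 and the overlapping antisense gene Ipcef1 by library, in CPM from the gene table (the first 2 panels) and from exon bins (the last 2 panels), each axis starting at 0; points are libraries and bars the mean ± SD of 3. In the gene table both genes are highest in the dentate gyrus, at 49.1 and 46.4 CPM, while in exon bins Oprm1 is at 0.652 CPM there, inside its wild-type range, and Ipcef1 is at 41.1 CPM.

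Reads of Oprm1 were few and lay in few bins. Of its 54 exon bins, 35 held 0 reads in all 7 libraries, among them bins 1 to 3 at the farthest upstream start. Bins 4 to 12, which hold the start and first coding exon used by most annotated transcripts, had summed counts of 4, 3 and 5 in the wild type, 16, 28 and 12 in the knockout, with 3 in the dentate gyrus. The coding bins 18 to 21 had 4, 11 and 14, then 13, 7 and 11, and 9. Bins 35 to 39, with 42.3% of the gene's exon bin counts over the 7 libraries, had 7, 15 and 22, then 15, 29 and 7, and 9. Bins 40 to 54, which lie within the span of Ipcef1, held 0 reads in every Ammon's horn library and 2 in the dentate gyrus. The knockout libraries were higher in bins 4 to 12 and overlapped the wild-type ones in bins 18 to 21 and in bins 35 to 39. In the single bin of bins 4 to 12 with the most reads (bin 9) the counts were 1 in each wild-type library, 2, 7 and 3 in the knockout libraries and 0 in the dentate gyrus. These stretches were chosen after their values were seen, neighbouring short bins can count one read more than once, and none of the bins reached the minimum for a test.

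**Figure D4:**
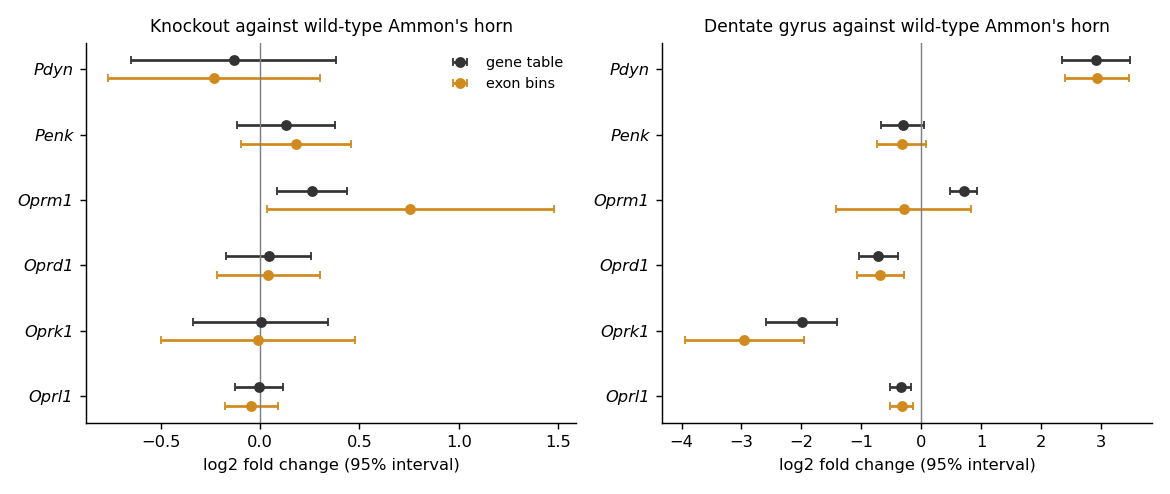
Log2 fold change of each gene (horizontal) with its 95% interval from edgeR, knockout on the left and dentate gyrus on the right, each against wild-type Ammon's horn; black is the gene table and orange the sum of exon bins. The 2 ways of counting lie close together for Pdyn, Penk, Oprd1 and Oprl1 and lie on opposite sides of 0 for Oprm1 in the dentate gyrus, at 0.71 and -0.29.

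The Khdrbs3 deletion gave no call among the opioid genes. By edgeR's quasi-likelihood test 0 of 6 passed, against 0.0745% of the 22830 genes tested (17 genes), and 0 of 6 passed with DESeq2, with limma-voom or in exon bin sums (0.0523% of genes there). At an unadjusted p under 0.05 there was 1 of 6, Oprm1, against 8.38% of all genes. Both comparisons use the same wild-type libraries.

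For Oprm1 the knockout difference in the gene table was 0.26 ± 0.08 (log2, SE; unadjusted p = 0.0072 and adjusted p = 0.412 in edgeR), and the 3 and 3 libraries did not overlap, as in 1 of the 6 genes and 13.2% of all genes tested. In exon bins it was 0.76 ± 0.33 with an adjusted p of 0.648. Ipcef1 differed by 0.17 ± 0.08 in the gene table (adjusted p 0.609). The intervals of the other 5 genes bound what a difference could be. Pdyn was at -0.13 with a 95% interval from -0.65 to 0.38, and without knockout library 1 at 0.12. Penk was at 0.13, from -0.12 to 0.38, and Oprk1 at 0.00, from -0.34 to 0.34. Oprd1 was at 0.04, from -0.17 to 0.26. The tightest bound was that of Oprl1, from -0.12 to 0.12. A change of 2-fold in either direction thus lay outside the interval of each of these 5 genes in the gene table.

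Exon usage, the change of a bin against its whole gene, was tested by diffSpliceDGE of edgeR, and a bin had to hold 10 reads or more in 3 or more libraries. In the knockout 0 of 28 bins of the 6 genes were called, against 0.00301% of 166154 bins, and 1 had an unadjusted p under 0.05, against 1.72% of all bins. That was bin 19 of Oprl1, a coding bin, at -0.27 ± 0.13 (log2, SE), with an unadjusted p of 0.0496 and an adjusted p of 1 in edgeR. Its share of the gene's exon bin reads was 6.13% ± 0.70 in the wild type and 5.07% ± 0.23 in the knockout (SD, n = 3). In the dentate gyrus 0 of 30 bins were called, against 0.213% of 169072, and 0 had an unadjusted p under 0.05, against 3.89%. The bins with the smallest p in the other genes were bin 2 of Pdyn (p 0.233 in edgeR), bin 1 of Penk (0.728), bin 3 of Oprd1 (0.575) and bin 10 of Oprk1 (0.839) in the knockout. In the dentate gyrus they were bin 17 of Oprl1 (p 0.0667 in edgeR), bin 7 of Pdyn (0.31), bin 2 of Oprd1 (0.326), bin 2 of Penk (0.514) and bin 10 of Oprk1 (0.745). The limma diffSplice test called 0 in either comparison. No bin of Oprm1 was deep enough to be tested, so its exon usage in the knockout was not measured.

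The other precursors of the family showed no call. Pnoc, the nociceptin precursor, was measured at 7.79, 6.76 and 6.41 CPM in wild-type Ammon's horn, at 8.38, 8.00 and 8.80 CPM in the knockout and at 5.76 CPM in the dentate gyrus. The knockout libraries all lay above the wild-type ones, while in 13.2% of all genes tested the 3 and 3 libraries did not overlap. The difference of Pnoc was 0.27 ± 0.10 on the log2 scale, with an unadjusted p of 0.0265 and an adjusted p of 0.525 in edgeR. Of all genes, 8.38% had an unadjusted p under 0.05. Between regions Pnoc differed by -0.28 ± 0.15 (adjusted p 0.217). Pomc, the precursor of beta-endorphin, was at 0.966 to 1.32 CPM in all 7 libraries.

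Of 6 genes that cut and handle neuropeptide precursors, 5 were called lower in the dentate gyrus and 0 higher, against 10.9% and 11.2% of all genes tested. Their median was -0.51 on the log2 scale, against -0.01 over all genes. The prohormone convertase Pcsk1 differed by -0.73 ± 0.14, its inhibitor Pcsk1n by -0.61 ± 0.10, carboxypeptidase E (Cpe) by -0.50 ± 0.08, the Pcsk2 chaperone Scg5 by -0.52 ± 0.07 and cathepsin L (Ctsl) by -0.30 ± 0.08, with adjusted p-values in edgeR from 0.000556 to 0.0176. The one processing gene not called, named after its values were seen, was Pcsk2, the convertase that makes the shorter dynorphins, at 243 ± 5.6 CPM in wild-type Ammon's horn and 215 CPM in the dentate gyrus (-0.18, adjusted p 0.11 in edgeR). The precursor gene Pdyn thus stood higher in the same library in which 5 processing genes stood lower. Of 9 peptidases that can break opioid peptides down, 1 was called, a share below the 22.0% of all genes. It was the neprilysin gene Mme, higher by 0.55 ± 0.17 (adjusted p 0.0411, edgeR), and the list's median was 0.14. That call was lost in 7 of 12 alternatives, DESeq2 and most fits without 1 library among them, at adjusted p-values from 0.0502 to 0.0865. The call of Ctsl was lost when only the 4 wild-type libraries were fitted (adjusted p 0.0646, edgeR).

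Among 21 genes of receptor signalling, 3 were called higher in the dentate gyrus, a share near the 11.2% of all genes, and 6 lower, against 10.9% of all genes. The list's median was -0.03. Adenylyl cyclase 1 (Adcy1) was higher by 1.28 ± 0.11, from 400 ± 13 to 968 CPM. The subunit genes Kcnj6 and Kcnj9 of the G protein-gated potassium channels were higher by 0.92 ± 0.18 and 0.45 ± 0.13 (Kcnj9 being named after its value was seen), and Kcnj6 varied between the wild-type libraries, at 54.3 ± 12.5 CPM. Lower were, among others, the regulator of G protein signalling Rgs4 (-0.72 ± 0.07), the inhibitory G protein subunit Gnai1 (-0.61 ± 0.10), adenylyl cyclase 5 (Adcy5, -0.54 ± 0.08) and the receptor kinase Adrbk2 (-0.44 ± 0.08). Their adjusted p-values in edgeR ran from 4.1e-05 to 0.0293. The 2 adenylyl cyclase genes called thus differed in opposite directions.

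Of 6 transcription regulators linked to opioid peptide genes, Creb1 was called higher in the dentate gyrus (0.38 ± 0.08) and Fosb (-1.22 ± 0.20), Junb (-0.68 ± 0.15) and Kcnip3 (-0.31 ± 0.07) lower, at adjusted p-values from 0.0015 to 0.0104 in edgeR and with a list median of -0.49, beside 11.2% of all genes called higher and 10.9% lower. Fos, of the same list, was not called here but was called lower in some alternatives, DESeq2 (-0.93) among them. Kcnip3 encodes DREAM, known as a repressor of Pdyn, and stood at 78.6 ± 2.5 CPM in wild-type Ammon's horn and 63.6 CPM in the dentate gyrus. Of 15 other neuropeptide precursors 7 were called lower, against 10.9% of all genes, and 2 higher, a share near the 11.2% of all genes, with a median of -0.49. The call of Tac1, one of the 7, was lost in 7 of 12 alternatives, at adjusted p-values from 0.0577 to 0.0853. The interneuron peptides Sst (-1.12 ± 0.11) and Vip (-1.50 ± 0.21) were lower, as were Nts (-2.45 ± 0.44), Grp (-0.62 ± 0.12) and Cck (-0.42 ± 0.08), while Adcyap1 was higher (1.77 ± 0.33), at adjusted p-values from 7.3e-05 to 0.00479 in edgeR. The other of the 2 called higher, named after its value was seen, was Gal, at 0.125 ± 0.11 CPM in wild-type Ammon's horn and 0.82 CPM in the dentate gyrus, a call lost without wild-type library 1 or 2. Among the precursors of opioid and other neuropeptides tested here, Pdyn, Adcyap1 and Gal were the 3 called higher in the dentate gyrus. In the knockout 0 of the 58 genes tested in these 6 lists were called with edgeR, DESeq2 or limma-voom, and 5 had an unadjusted p under 0.05, a share near the 8.38% of all genes. They were Pnoc, Ace, Gnai2, Cck and Grp. The peptidase gene Ace was at 13.0, 9.94 and 8.67 CPM in the wild type and at 20.9, 10.4 and 20.4 CPM in the knockout. Knockout library 2 was low in Ace and in choroid plexus markers, and without it Ace was called higher by 0.98 on the log2 scale (adjusted p 0.0263, edgeR). The part of choroid plexus in that difference was not tested.

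**Figure D5:**
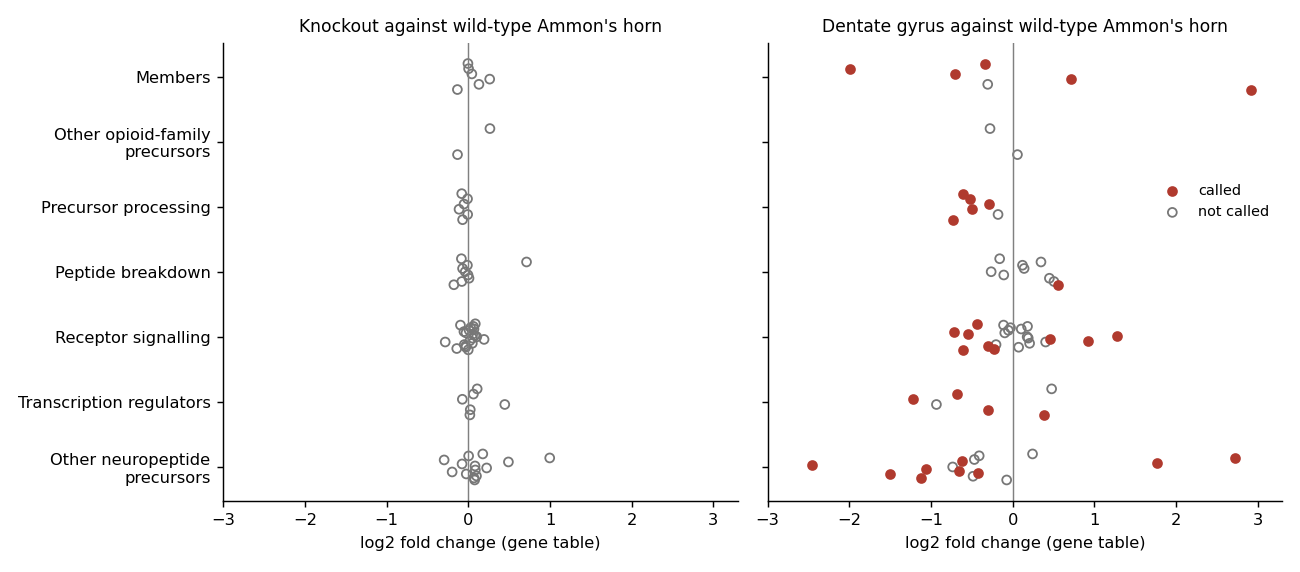
Log2 fold change of every tested gene of each list (horizontal, gene table), in the knockout (left panel) and the dentate gyrus (right panel) against wild-type Ammon's horn; filled points were called and open points were not. No point is filled in the knockout panel, and in the dentate gyrus panel 5 of 6 processing genes are filled and lie below 0.

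The genes whose pattern over the 7 libraries lay nearest to each opioid gene were found by the root mean square difference of log2 CPM, each gene centred on its own mean. Nearest to Pdyn were Npnt, at 0.145, and the granule cell marker C1ql2, at 0.212. Nearest to Oprk1 were Met, at 0.105, and Dusp5, at 0.107. Both were, like Oprk1, lowest in the dentate gyrus, at 1.99 CPM for Met and 4.57 CPM for Dusp5. Oprd1 lay nearest to the NMDA receptor subunit gene Grin3a, at 0.0281, and to Plxna1, at 0.043. Penk lay nearest to Vwc2 (0.0591) and Gm3650 (0.0674), Oprl1 to Tom1 and Ldhd (both 0.0254), and Oprm1 in the gene table to Akap9 (0.0614) and Igsf10 (0.0705). The search ran over 13229 genes with a mean of at least 5 CPM, or 13230 for Oprk1, which is itself under that level.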

How the data were processed

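The authors deposited raw read counts per gene record in one table and raw counts per DEXSeq exon bin for each library, neither normalised. Tools listed in the submitters' processing notes, with no role, are bedtools 2.17.0, DESeq2 1.0.19, TopHat2 2.0.8b and Trim Galore 0.3.5, and the genome build is mm10. Strand use is not given in the sources used here. Bin positions were rebuilt from GENCODE M21 models on the same build, with all bins matched for the 6 genes and 1 transcript of Oprk1 left out. The tests were run with edgeR 4.0.16 under R 4.3.3 (TMM, the package's low-count filter, quasi-likelihood F test, Benjamini-Hochberg adjustment over all genes or bins), with limma 3.58.1 and DESeq2 1.42.0 as alternatives. All 6 genes passed the filter in both comparisons. The knockout comparison used 6 libraries, and the dentate gyrus comparison all 7 with a shared spread. The scripts were tested on simulated counts. Low counts limit the exon bin values of Oprm1 and Oprk1.

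Named were the 6 genes, Pnoc and Pomc, up to 6 called genes per list by smallest adjusted p, the 2 nearest genes of each, and the bin with the smallest p. The members and lists were chosen with earlier results of these data known. Alternatives were other size factors, no filter, other tools, exon bin sums, another bin minimum and leaving out each Ammon's horn library.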

Additional observations from a re-analysis of the deposited data

How the results depend on the processing

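In the dentate gyrus 5 of the 6 genes were called in every fit that left out 1 Ammon's horn library, and Pdyn, Oprd1, Oprk1 and Oprl1 were called in all 12 alternatives. Oprm1 was called in 11 of 12 and reversed to -0.29 in exon bin sums, where leaving out 1 library gave -0.519 to 0.0694. The cause was not tested. Leaving out libraries in exon bin sums was an alternative chosen after seeing the data. In the knockout 0 members were called in any of 11 alternatives. Small knockout differences changed sign: Oprk1 was -0.0108 in exon bin sums (-0.163 to 0.168 there when 1 library was left out), and leaving out 1 library gave -0.422 to 0.119 for Pdyn (exon bins -0.551 to 0.0337), -0.00493 to 0.101 for Oprd1 (exon bins -0.0147 to 0.101), -0.0817 to 0.0859 for Oprk1 and -0.0369 to 0.0284 for Oprl1 (exon bins -0.0884 to 0.00179).

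Over all genes, knockout calls went from 17 to 117 with DESeq2, 10 with limma-voom, 8 in exon bin sums (fewer genes tested) and 11 to 55 without 1 library, 55 being without knockout library 2. Knockout bins went from 5 to between 5 and 8 without 1 library. Dentate gyrus bins went from 360 to 214 at a minimum of 30 reads, 553 with limma diffSplice, 210 in the 4 wild-type libraries and 196 to 512 without 1 library. Called peptidases in the dentate gyrus were 0 to 3 over 12 alternatives. The lower calls of Gnai2 (receptor signalling) and Tac2 (other neuropeptide precursors) in the dentate gyrus were lost in some alternatives. No paired analysis was possible because the labels carry no replicate numbers; the numbers used here follow deposit order and only name the libraries.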
